A study of Mus musculus with 5 samples.

Results

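The perineuronal net is a dense coat of extracellular matrix around neurons, and a looser form of the same matrix fills the space between cells and the gaps at nodes of Ranvier. Its backbone is hyaluronan, a sugar chain extruded by hyaluronan synthases; lecticans, which are chondroitin sulfate proteoglycans, bind that chain, link proteins clamp the bond, and tenascin-R crosslinks the lecticans at their far ends. In the spinal cord such nets are known around motor neurons and other large neurons, and the matrix is known to limit axon sprouting. The genes described here are the 4 lecticans aggrecan (Acan), brevican (Bcan), neurocan (Ncan) and versican (Vcan), the link proteins Hapln1, Hapln2 and Hapln4, tenascin-R (Tnr), Crtac1, a secreted glycoprotein known as an antagonist of the Nogo receptor, and the hyaluronan synthase Has3. They were taken by symbol from the GRCm38 annotation and not by a cut on their values, but with earlier results of these data known. All 10 were found among the 55471 gene identifiers of the count table, and all 10 were among the 16052 genes with enough counts to be tested.

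The tissue was spinal cord of male C57BL/6J mice at 3 months, described as resting, with polyadenylated RNA from 3 wild type (WT) libraries and 2 libraries of the Lhx1os knockout (KO, Lhx1os -/-). Lhx1os makes a long non-coding RNA. To stop its transcription, fertilised eggs had received Cas9 with 1 guide, and a minimal poly-A signal with MAZ sequences was placed in the second exon, so the change is constitutive and not limited to a cell type. The labels give neither the number of founders nor the stretch of cord taken. They do not say whether libraries came from separate litters or days, so p-values measure only the spread between these libraries, which may be in part technical. Library totals ran from 15973063 to 19437533 counts, and the 10 genes had 75 to 6634 counts per library. The targeted gene Lhx1os had 56, 66 and 51 counts in WT and 13 and 11 in KO, so each KO library lay below each WT library; its adjusted p was 0.0589 in edgeR's quasi-likelihood test and 0.00195 in DESeq2. All listed markers of neurons, astrocytes and oligodendrocytes had counts in every library. In bulk tissue, fewer cells of a type and less RNA per cell cannot be told apart.

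None of the 10 matrix genes passed the test between genotypes: 0 of 10 had an adjusted p under 0.05 in edgeR's quasi-likelihood test, where 0.0187% of all tested genes did. Unadjusted, 1 of 10 had p under 0.05 against 7.57% of all genes, and 4.07% of all genes had it in the direction of that gene, lower in KO. DESeq2 and limma-voom likewise called 0 of the 10, against 0.249% and 0.00623% of all genes, and had 1 each at an unadjusted p under 0.05, against 4.22% and 7.38% of all genes. With robust dispersion edgeR called 0 of the 10 and 0.0748% of all genes. The log2 fold changes of KO over WT were positive for 5 genes (Acan, Bcan, Ncan, Hapln4 and Crtac1) and negative for 5 (Vcan, Hapln1, Hapln2, Tnr and Has3). Their median was 0.03, and the median over all genes was 0.00438. For all 10 genes the 95% interval of the fold change lay inside 1.5-fold in either direction, as it did for 71.4% of all genes; these intervals are not adjusted for the number of genes. Smaller differences lie within those intervals. The gene with the smallest p was Vcan, the 1 matrix gene whose groups did not overlap, with both KO libraries below all WT libraries. Groups did not overlap, in either direction, for 24.9% of all genes. Scaled by library totals without TMM, 4 of the 10 did not overlap (Hapln4 and Crtac1 higher, Vcan and Hapln1 lower in KO), against 24.6% of all genes.

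**Figure D1:**
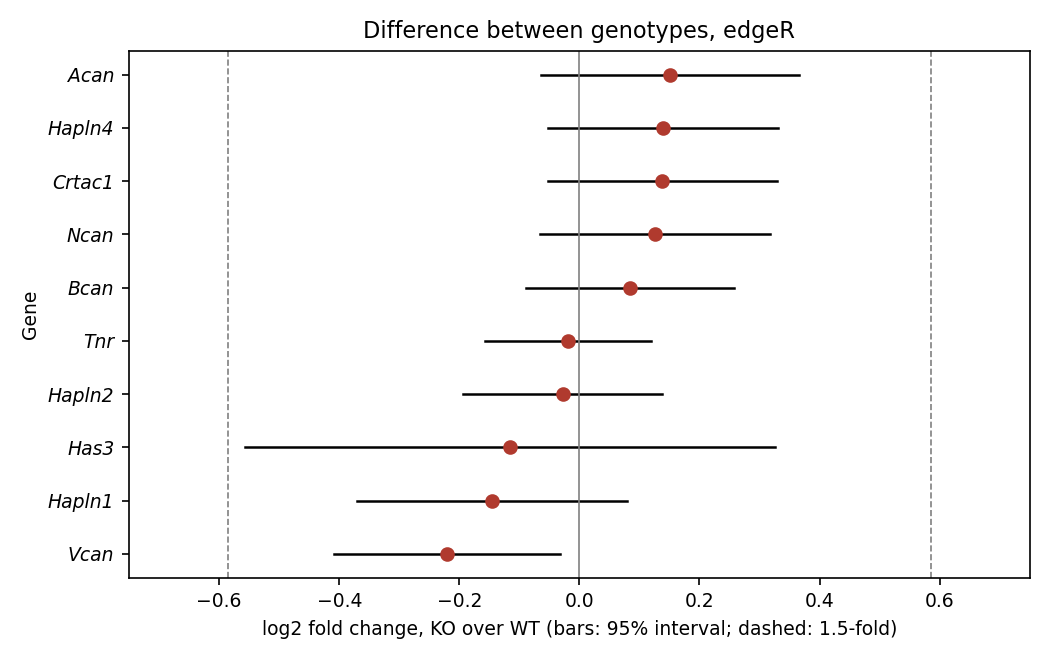
The log2 fold change of KO over WT (horizontal axis) is plotted for each of the 10 matrix genes, with bars for the 95% interval from edgeR, a solid line at 0 and dashed lines at 1.5-fold. Every bar stays between the dashed lines, and the bar of Vcan, from −0.41 to −0.03, is the 1 bar that leaves out 0.

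Lecticans and link proteins lie in pairs in the mouse genome. In GRCm38, Bcan (chromosome 3, 87987531 to 88000230, minus strand) and Hapln2 (88021750 to 88027583, minus strand) are 21.5 kb apart. Ncan (chromosome 8, 70093085 to 70120873, minus strand) and Hapln4 (70083457 to 70090862, plus strand) are 2.22 kb apart. Vcan (chromosome 13, 89655312 to 89742509, minus strand) and Hapln1 (89539796 to 89611652, plus strand) are 43.7 kb apart. Acan (chromosome 7, 79053483 to 79115099, plus strand) ends 2 bases from Hapln3, another link protein gene, on the minus strand. No protein-coding gene lies between the partners of any of the 4 pairs. Tnr lies on chromosome 1 (159523769 to 159931729, plus strand), Crtac1 on chromosome 19 (42283035 to 42431783, minus strand) and Has3 on chromosome 8 (106870242 to 106884566, plus strand).

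The sequence just upstream of the start is shown for 3 lecticans, to set Vcan, the 1 gene with groups that do not overlap, beside Acan and Bcan, 2 lecticans with KO means above the WT means. RefSeq on GRCm38.p6 gave a start window for 8 of the 10 genes; these 3 windows hold no annotated exon. Each is the 250 bases before the RefSeq start, read 5′ to 3′ on the gene's strand. Capitals mark the GC box GGGCGG or its reverse complement. They cover chr13:89742513-89742762 (minus strand) for Vcan, chr7:79052976-79053225 (plus strand) for Acan and chr3:88000357-88000606 (minus strand) for Bcan.
Vcan: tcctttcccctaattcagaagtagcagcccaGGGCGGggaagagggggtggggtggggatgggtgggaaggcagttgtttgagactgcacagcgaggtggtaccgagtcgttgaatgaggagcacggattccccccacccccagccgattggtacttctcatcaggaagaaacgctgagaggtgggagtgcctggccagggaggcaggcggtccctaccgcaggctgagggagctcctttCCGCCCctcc
Acan: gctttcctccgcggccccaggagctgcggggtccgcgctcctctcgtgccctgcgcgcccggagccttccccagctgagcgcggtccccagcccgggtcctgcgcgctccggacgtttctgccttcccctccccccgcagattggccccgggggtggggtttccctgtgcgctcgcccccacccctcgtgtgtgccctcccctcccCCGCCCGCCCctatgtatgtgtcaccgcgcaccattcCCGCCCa
Bcan: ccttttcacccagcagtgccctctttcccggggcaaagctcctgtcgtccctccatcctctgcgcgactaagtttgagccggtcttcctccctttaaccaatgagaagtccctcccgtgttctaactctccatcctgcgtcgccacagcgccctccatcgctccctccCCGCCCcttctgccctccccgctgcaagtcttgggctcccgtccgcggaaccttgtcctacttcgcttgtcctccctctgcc

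Both strands were searched for 5 short motifs. The GC box occurred 2 times in the Vcan window, 3 times in that of Acan, where 2 matches overlap, and 1 time in that of Bcan, and it is present in 32.7% of the 32851 windows of the same length in the table. The TATA box TATAAA (12.4% of all windows), the cAMP response element TGACGTCA (1.55%), the SOX site ACAAAG (16.5%) and the glucocorticoid response element core ACANNNTGT (5.84%) had no match in these 3 windows. The bases G and C made up 62.4% of the Vcan window, 74.4% of that of Acan and 62.0% of that of Bcan, against a median of 52.4% over all windows.

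Levels are given as CPM, a gene's counts scaled to the size of its library, and different genes are compared as CPM per kilobase of exon (CPM per kb), the exon length being the union of all annotated exons. Bcan stood highest, with a mean over the 5 libraries of 79.8 CPM per kb and a range of 70.3 to 86.0 that was clear of the next gene. Hapln2, a link protein made by oligodendrocytes and placed at nodes of Ranvier, followed at 59.4 (55.1 to 62.8), and Hapln4, the link protein of inhibitory synapses on large neurons, at 57.7 (48.5 to 62.5). These neighbours in the order overlapped. Crtac1 stood at 36.6 CPM per kb (31.3 to 39.2), Tnr at 12.8 (12.4 to 13.6) and Ncan at 9.97 (8.62 to 11.1). Each of those 3 ranges was clear of its neighbours' ranges. Acan at 4.50 CPM per kb (3.96 to 5.02) overlapped with Hapln1 at 3.77 (3.40 to 4.28), and Hapln1 overlapped with Vcan at 2.98 (2.59 to 3.41). Has3 was lowest, at 0.907 CPM per kb (0.721 to 1.03).

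**Figure D2:**
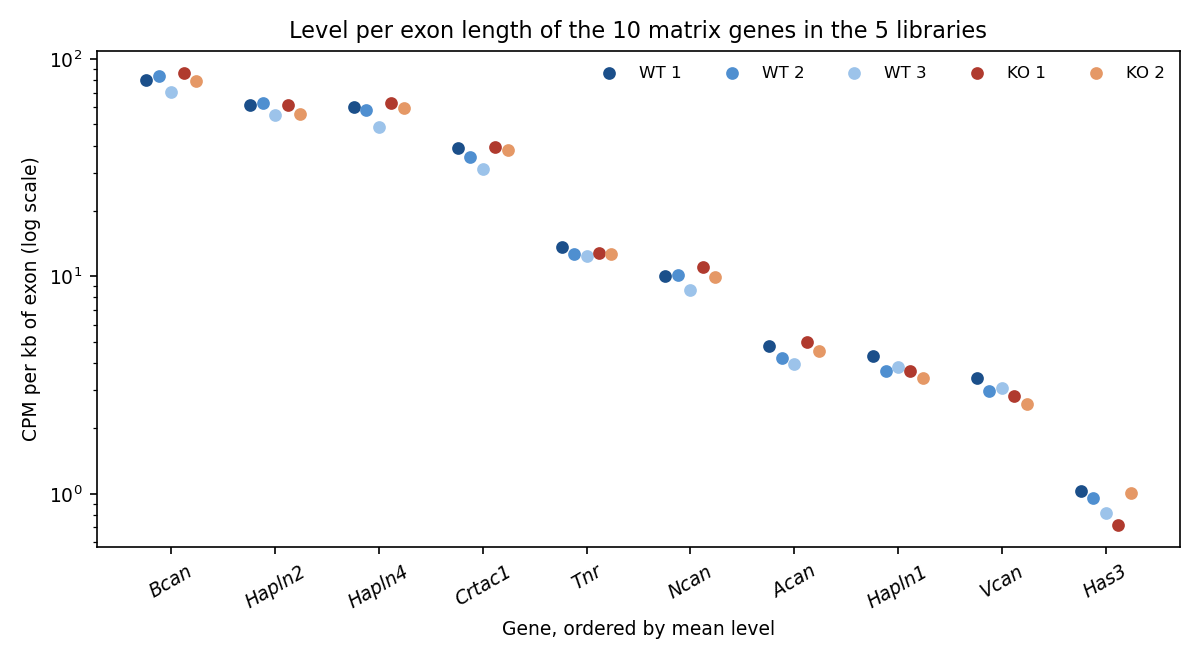
The level of each matrix gene is plotted as CPM per kb of exon on a log axis, with 1 point per library (blue shades WT, red and orange KO) and genes ordered by their mean. Bcan leads at 79.8 and Has3 is last at 0.907 CPM per kb, and WT replicate 3 is the lowest point for 7 of the 10 genes.

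Vcan encodes versican, a lectican expressed by oligodendrocyte precursors and astrocytes and found at nodes. Its WT libraries had 49.4, 43.1 and 44.6 CPM, and its KO libraries 40.9 and 37.4 CPM. Both KO libraries lay below the lowest WT library, and the gap between the groups was smaller than the spread within WT. WT averaged 45.7 ± 3.30 CPM (SD, n = 3) and KO averaged 39.2 ± 2.45 CPM (SD, n = 2). KO over WT was −0.22 on the log2 scale (SE 0.08). The unadjusted p of edgeR's quasi-likelihood test was 0.0258 and the adjusted p was 0.626, so Vcan did not pass. The log2 fold change kept its sign under every alternative, from −0.29 without KO replicate 1 to −0.16 without KO replicate 2.

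Oligodendrocyte precursors also make versican. Of their 10 listed markers, all tested, 6 had negative and 4 positive log2 fold changes, and the 10 together summed to 353.4, 375.9 and 360.2 CPM in WT and to 320.6 and 321.1 CPM in KO, so the summed groups did not overlap either. Singly, 4 of the 10 were lower in each KO library than in any WT library and 2, Sox6 (0.20, SE 0.09) and Matn4 (0.16, SE 0.14), were higher in each; these 2 were named after their values were seen. None of the 10 passed in edgeR as used throughout. Gpr17 passed in 5 of the 13 alternatives. These were no filter on low counts, robust dispersion, the replicate block, DESeq2 (adjusted p = 1.18e-05) and leaving out WT replicate 1. Over all genes, the first 4 of these called 0.373%, 0.0748%, 0.156% and 0.249%. Without WT replicate 1, 5 genes were called higher and 53 lower in KO. Over all 13 alternatives the adjusted p of Gpr17 reached 0.456. Gpr17, a receptor of differentiating precursors, had 67.3, 69.5 and 67.3 CPM in WT and 39.9 and 48.8 CPM in KO (log2 fold change −0.62, SE 0.09; edgeR adjusted p = 0.0603). The precursor receptor Pdgfra had a log2 fold change of −0.22 (SE 0.08; edgeR adjusted p = 0.586) and Lhfpl3, another precursor marker, −0.12 (SE 0.06; edgeR adjusted p = 0.708). The part of these cells in the values of Vcan was not tested. The 3 genes closest to Vcan in their pattern over the 5 libraries, of 10445 genes with a mean of at least 10 CPM, were B3galt5, Slc12a2 and Paqr8. Their centred log2 CPM differed from those of Vcan by a root mean square of 0.0220, 0.0226 and 0.0237.

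Acan encodes aggrecan, the lectican most tied to perineuronal nets. Its level was 35.6, 31.3 and 29.6 CPM in WT and 37.5 and 33.9 CPM in KO. KO replicate 2 lay among the WT libraries, so the groups overlapped, with KO replicate 1 highest and WT replicate 3 lowest. The log2 fold change was 0.15 (SE 0.10; edgeR adjusted p = 0.745), with a 95% interval from −0.06 to 0.37.

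Bcan encodes brevican, a lectican of astrocytes and of the oligodendrocyte lineage. It had 325.8, 338.9 and 285.8 CPM in WT and 349.4 and 322.5 CPM in KO, so that WT and KO overlapped. The log2 fold change was 0.08 (SE 0.08; edgeR adjusted p = 0.820). Ncan, the gene of neurocan, had 72.5, 73.0 and 62.1 CPM in WT and 79.9 and 71.3 CPM in KO, again with overlap (0.13, SE 0.09; edgeR adjusted p = 0.760). For Bcan and Ncan alike, KO replicate 1 was the highest library and WT replicate 3 the lowest.

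Bcan made up most of the lectican level. Of the summed CPM per kb of the 4 lecticans, Bcan held 82.0% ± 0.709 in WT (SD, n = 3) and 82.1% ± 0.273 in KO (SD, n = 2). Ncan held 10.1% ± 0.110 and 10.4% ± 0.216, and Acan 4.54% ± 0.347 and 4.75% ± 0.0486. Vcan held 3.47%, 2.96% and 3.58% across WT, and 2.70% and 2.69% across KO. The share of Vcan was thus lower in both KO libraries than in any WT library. That of Ncan was higher in both, at 10.6% and 10.3% against 10.2%, 10.1% and 10.0% in WT, and those of Bcan and Acan overlapped. For the CPM of single genes, groups did not overlap in 24.9% of those tested. With 3 libraries against 2 there are 10 ways to split them, so an exact permutation test of a single value cannot go below a one-sided p of 0.1, and none is given.

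Among the link proteins, Hapln1 works with aggrecan and versican in nets and in cartilage. It had 25.3, 21.6 and 22.6 CPM in WT and 21.8 and 20.1 CPM in KO. KO replicate 1 lay just above WT replicate 2, so the groups overlapped, and the log2 fold change was −0.15 (SE 0.10; edgeR adjusted p = 0.761). Hapln2 had 146.4, 149.0 and 130.6 CPM in WT and 145.9 and 132.7 CPM in KO, with KO inside the range of WT (−0.03, SE 0.07; edgeR adjusted p = 0.948). The sign of Hapln2 turned without WT replicate 2 (0.00837) and without KO replicate 2 (0.04).

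Hapln4 had 235.1, 227.9 and 190.2 CPM in WT and 245.2 and 234.5 CPM in KO. WT replicate 3 stood well below the other 4 libraries, among which the groups overlapped. The log2 fold change was 0.14 (SE 0.09; edgeR adjusted p = 0.732), and it was 0.05 without WT replicate 3. Within the summed CPM per kb of the 3 link proteins, Hapln4 held 47.6%, 46.6% and 45.1% in WT and 48.9% and 50.2% in KO. Hapln2 held 49.0%, 50.4% and 51.3% in WT and 48.2% and 47.0% in KO. Per kb of exon, Hapln2 was the larger of both in every WT library and Hapln4 in both KO libraries, although neither gene passed on its own. In CPM, without the exon length, Hapln4 was the larger in every library. Which of both is larger thus depends on the length used. Hapln1 held 3.40%, 2.94% and 3.56% in WT and 2.89% and 2.85% in KO, so none of the 3 shares overlapped between the groups. Shares of 1 sum do not move independently. In CPM the groups overlapped for all 3 genes, and they did not overlap for 24.9% of all genes tested.

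**Figure D3:**
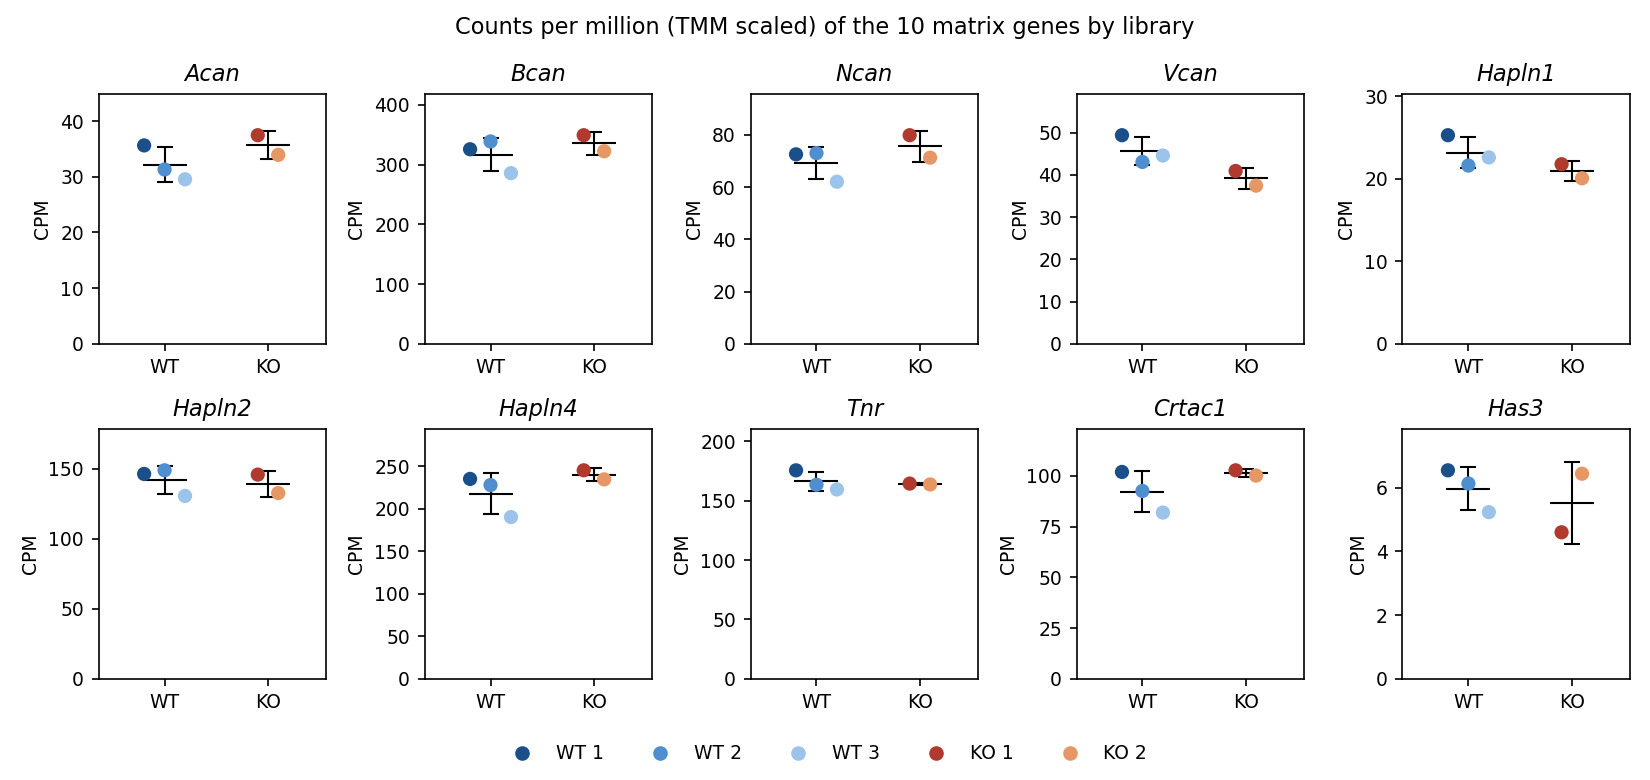
Each panel plots the CPM of a matrix gene on an axis from 0, with 1 point per library (3 WT, 2 KO), a horizontal bar at the group mean and an error bar of 1 SD. Only the panel of Vcan has both KO points (40.9 and 37.4 CPM) below all WT points.

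Tnr encodes tenascin-R, made by oligodendrocytes and some neurons, which joins lecticans to each other. It had 175.5, 163.4 and 159.4 CPM in WT and 164.3 and 163.6 CPM in KO. Both KO libraries lay within the WT range, and the log2 fold change was −0.02 (SE 0.06; edgeR adjusted p = 0.962), the smallest in size of the 10. Its highest library exceeded its lowest by 1.10-fold, the narrowest span of the 10 genes, against a median of 1.24-fold over all genes. Crtac1 had 101.9, 92.5 and 81.9 CPM in WT and 102.7 and 100.1 CPM in KO. WT replicate 1 lay between the KO libraries, and the log2 fold change was 0.14 (SE 0.09; edgeR adjusted p = 0.732), or 0.06 without WT replicate 3.

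Has3, the most abundant hyaluronan synthase gene here per exon length and in CPM, was the scarcest and most variable matrix gene. It had 110, 120 and 85 counts in WT and 75 and 103 in KO, or 6.55, 6.13 and 5.23 CPM and 4.60 and 6.44 CPM. KO replicate 1 was the lowest library and KO replicate 2 lay second, so the KO libraries spanned nearly the whole range. The log2 fold change was −0.12 (SE 0.20; edgeR adjusted p = 0.907), and it was 0.10 without KO replicate 1. Exons of Has3 share 352 bases with those of Chtf8 on the opposite strand, and without a stated strand setting its counts are uncertain. The other synthase genes were scarcer: Has1 averaged 0.803 CPM in WT and 0.804 CPM in KO. Has2 averaged 0.721 and 0.809 CPM.

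The patterns over the libraries were compared between the 10 genes. Each gene's log2 CPM was centred on its mean over the 5 libraries, and the root mean square difference was taken for each of the 45 pairs of the 10 genes. Bcan with Ncan, on different chromosomes, came first at 0.0295. The genomic neighbours Vcan with Hapln1 took rank 3 (0.0383), Ncan with Hapln4 rank 4 (0.0417) and Bcan with Hapln2 rank 7 (0.0589), while Acan with Has3 came last (0.230). The points share their libraries, and scarcer genes carry more counting noise, so the order is a description.

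The ratio of Vcan to Hapln1 in CPM per kb was 0.797, 0.813 and 0.805 in WT and 0.767 and 0.762 in KO. The ratio of Ncan to Hapln4 was 0.168, 0.175 and 0.178 in WT and 0.178 and 0.166 in KO. Bcan over Hapln2 was 1.30, 1.33 and 1.28 in WT and 1.40 and 1.42 in KO. Acan over Hapln3 was 25.6, 16.02 and 13.3 in WT and 10.3 and 8.51 in KO, with 11 to 30 counts of Hapln3 per library. The groups overlapped for Ncan over Hapln4 and did not for the other 3 ratios, and for single genes that separation occurred in 24.9% of those tested.

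**Figure D4:**
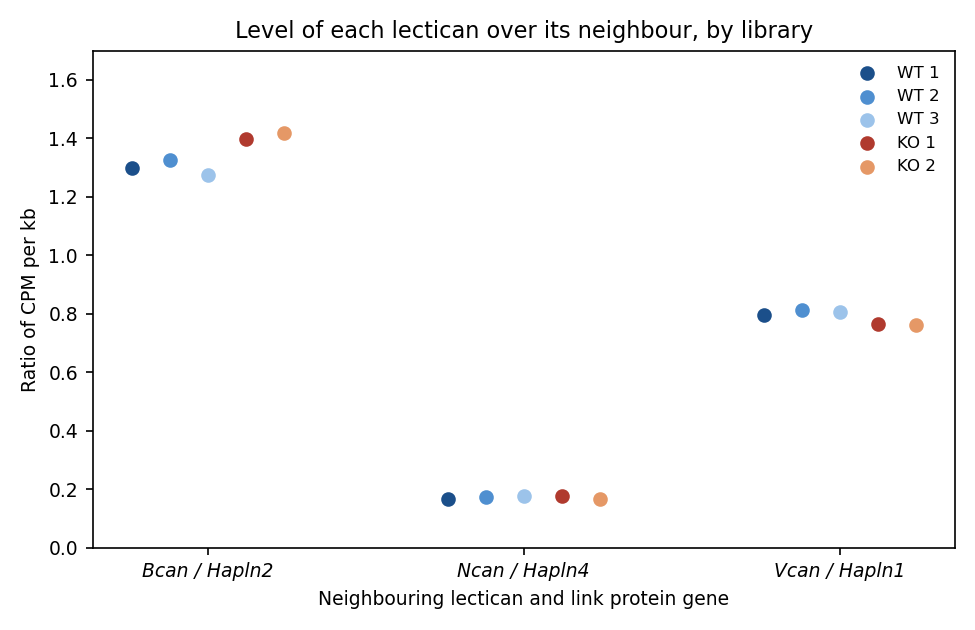
The ratio of CPM per kb of a lectican to that of its neighbouring link protein gene is plotted on an axis from 0 for the 3 pairs within the 10 genes, with 1 point per library. For Bcan over Hapln2 both KO points (1.40 and 1.42) lie above the WT points (1.28 to 1.33), and for Vcan over Hapln1 both KO points (0.767 and 0.762) lie below.

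One WT library stood low for most of these genes. WT replicate 3 was the lowest of the 5 libraries for 7 of the 10 genes (Acan, Bcan, Ncan, Hapln2, Hapln4, Tnr and Crtac1), where 22.0% of all tested genes had their lowest value there. Without it, the log2 fold changes were 0.09 for Acan, 0.01 for Bcan and 0.05 for Ncan, each below its value with all libraries. That direction was fixed in advance, since leaving out the lowest WT library of a gene raises its WT mean. KO replicate 1 lay above KO replicate 2 for 9 of the 10 genes, all but Has3, where 50% of all genes had that order. Without WT replicate 3, Vcan stood at −0.24 and Hapln1 at −0.17. The sum of markers of Pvalb and fast-firing neurons, a class known to carry nets, was also lowest in WT replicate 3. The 8 listed genes summed to 2943, 2774 and 2466 CPM in WT and to 3040 and 2906 CPM in KO. Acan, Hapln4 and Crtac1 ranked the 5 libraries in exactly the order of that sum, and 1.32% of all genes had this order. It was KO replicate 1 first, then WT replicate 1, KO replicate 2, WT replicate 2 and WT replicate 3. Single markers of the sum differed in their order. Scn1a had this order, while Pvalb had 92.3, 80.2 and 76.2 CPM in WT and 81.3 and 83.3 CPM in KO. Kcnc2 was lowest in WT replicate 1, at 68.7 CPM. None of these 8 markers passed in edgeR. Orders were compared for 13 marker lists, and the only other match was Hapln2 with rostral Hox genes (0.486% of all genes). The sums of general neuron markers (5411 CPM) and of rostral Hox genes (87.2 CPM) were also lowest in WT replicate 3. That of astrocyte markers (8126 CPM) was highest there.

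Motor neuron markers ranked the libraries as the fast-firing neuron markers did, except for the last 2 places. The 10 genes summed to 1892, 1331 and 1434 CPM in WT and 1929 and 1638 CPM in KO, and 0 of 10 passed. General neuron markers summed to 5411 to 5816 CPM in WT and 5846 and 5856 CPM in KO. Caudal Hox genes, which mark lower segments of the cord, summed to 9.10, 6.95 and 27.7 CPM in WT and 6.56 and 59.8 CPM in KO, so WT replicate 3 and KO replicate 2 had the most; Hoxa11, Hoxc11 and Hoxd11, singled out after their values were seen, had no count outside KO replicate 2. The part of segment and of neuron content in the levels of the matrix genes was not tested. Cartilage, which makes aggrecan and Hapln1, was represented by 12 markers that summed to 63.1, 71.9 and 85.0 CPM in WT and 56.9 and 62.9 CPM in KO. Their part in the level of Acan was not tested.

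**Figure D5:**
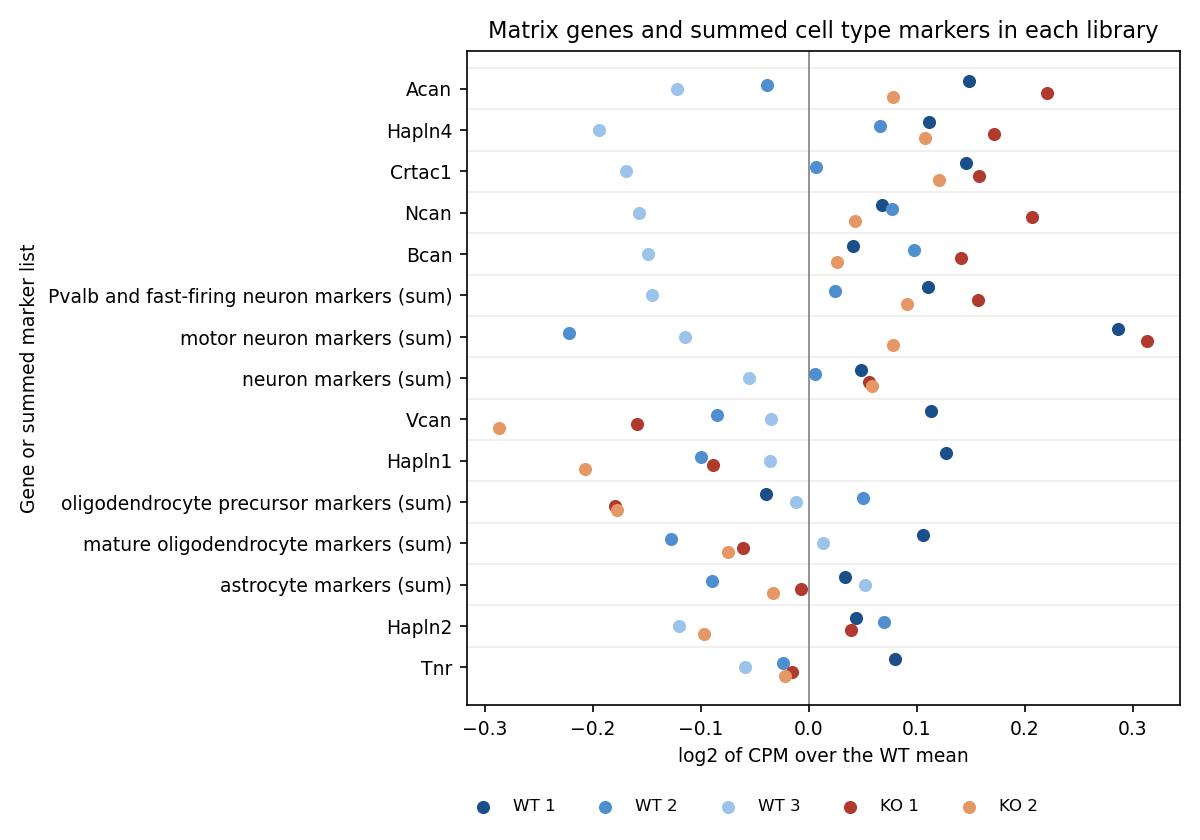
The log2 of CPM over the WT mean (horizontal axis) is plotted for 9 matrix genes, all but Has3, and for 6 summed marker lists, with 1 point per library. WT replicate 3 is the leftmost point for Acan, Hapln4, Crtac1, Ncan, Bcan, Hapln2 and Tnr. It is also leftmost for the fast-firing neuron sum (−0.15) and the general neuron sum (−0.06). Both KO points are leftmost for Vcan and for the precursor sum (−0.18 each).

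Beyond the 10 genes, 114 genes that build, modify, cleave or sense this matrix were read from 7 lists, and 109 had enough counts. These lists, too, were chosen with earlier results of these data known. In edgeR 0 of 109 passed, with a smallest adjusted p of 0.348; DESeq2 and limma-voom also called 0. At an unadjusted p under 0.05 there were 16 in edgeR, 14.7% against 7.57% of all genes, 9 higher and 7 lower in KO; DESeq2 had 10, where 4.22% of all genes met that in DESeq2, and limma-voom 15, where 7.38% did. The fold changes were split evenly, 55 positive and 54 negative, with a median of 0.00165. The groups did not overlap for 22.9% of the 109, against 24.9% of all genes. The 3 genes of smallest p in each list are named below, and none of them passed.

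Enzymes that start and extend chondroitin sulfate chains had 8 of 12 positive fold changes (median 0.08), with 3 at an unadjusted p under 0.05, all positive, where 3.49% of all genes met that in this direction. Chpf2, a chondroitin polymerising factor, had 59.9, 65.7 and 54.2 CPM in WT and 75.6 and 73.9 CPM in KO, every KO library above every WT library (log2 fold change 0.32, SE 0.08; edgeR adjusted p = 0.422). The xylosyltransferase Xylt2, which adds the first sugar to the core protein, stood at 0.24 (SE 0.10) and the linker glucuronosyltransferase B3gat3 at 0.14 (SE 0.06), with edgeR adjusted p of 0.644 and 0.657. Over the 12 genes, the groups did not overlap for 4, each higher in KO, against 12.9% of all genes. The 3 named genes are among these 4 and were picked by their p. Among 18 tested genes of sulfation and breakdown, 6 were positive and 12 negative (median −0.04), with 0 at an unadjusted p under 0.05. The sulfotransferases Chst12 (0.17, SE 0.11) and Chst15 (−0.08, SE 0.08) and the lysosomal iduronidase Idua (0.14, SE 0.10) had the smallest p of that list.

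Genes of hyaluronan synthesis, turnover and binding had 6 positive and 11 negative fold changes among 17 tested (median −0.04). In edgeR 1 was higher and 3 lower at an unadjusted p under 0.05, against 3.49% and 4.07% of all genes. Tnfaip6, a secreted hyaluronan-binding protein, had 30.9, 29.2 and 30.5 CPM in WT and 24.3 and 25.6 CPM in KO (log2 fold change −0.28, SE 0.08; edgeR adjusted p = 0.508). Cd44, the main cell surface receptor for hyaluronan, had 20.2, 20.9 and 23.5 CPM in WT and 18.0 and 16.8 CPM in KO (−0.31, SE 0.10; edgeR adjusted p = 0.578). Both genes were lower in each KO library than in any WT library. Hapln3, the link protein next to Acan, had 11, 18 and 17 counts in WT and 28 and 30 in KO, or 0.655, 0.919 and 1.05 CPM and 1.72 and 1.88 CPM. It was higher in both KO libraries, with a log2 fold change of 1.03 (SE 0.32; edgeR adjusted p = 0.525), the largest in size of the 109 genes.

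Matrix proteases and their inhibitors had 8 positive and 10 negative fold changes among 18 tested (median −0.00797). In edgeR 4 were higher and 1 lower at an unadjusted p under 0.05, against 3.49% and 4.07% of all genes. The lectican-cleaving protease Adamts1 had 19.5, 20.4 and 21.1 CPM in WT and 29.1 and 24.8 CPM in KO, the smallest p of the 109 genes (log2 fold change 0.41, SE 0.10; edgeR adjusted p = 0.348). Mmp17, a membrane-type metalloprotease, stood at 0.21 (SE 0.08; edgeR adjusted p = 0.615). The metalloprotease inhibitor Timp3 had 193.4, 248.1 and 275.9 CPM in WT and 192.0 and 188.0 CPM in KO (−0.33, SE 0.12; edgeR adjusted p = 0.613). WT replicate 1 lay close to the KO libraries, and without it Timp3 passed at an edgeR adjusted p of 0.0295. In that setting 5 genes were called higher and 53 lower in KO over all genes. Leaving out the WT library nearest to KO widens the gap between the groups, so the direction of this move was fixed in advance. Meningeal fibroblast markers were lowest in the same WT library, at a sum of 231.3 CPM against 456.9 and 546.3 in the other WT libraries and 295.1 and 302.5 in KO; their part in Timp3 was not tested.

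Other neural matrix proteins had 10 positive and 8 negative fold changes among 18 tested (median 0.02). In edgeR 0 were higher and 2 lower at an unadjusted p under 0.05, against 3.49% and 4.07% of all genes. Ptprz1, whose secreted form phosphacan binds tenascin-R, had 216.3, 206.1 and 223.3 CPM in WT and 192.8 and 182.5 CPM in KO (−0.20, SE 0.06; edgeR adjusted p = 0.520). The proteoglycans Spock3 and Spock2 stood at −0.16 (SE 0.07) and 0.14 (SE 0.07). Proteoglycan and Nogo receptors had 7 positive and 6 negative among 13 tested (median 0.04). In edgeR 1 was higher and 1 lower at an unadjusted p under 0.05, against the same shares of all genes. Those of smallest p were Ptprs, a receptor for chondroitin sulfate (0.16, SE 0.07), the integrin subunit Itgb1 (−0.18, SE 0.08) and the Nogo receptor Rtn4r, to which Crtac1 binds (0.38, SE 0.24). Node of Ranvier genes were positive in 10 of 13 (median 0.07), with 0 at an unadjusted p under 0.05, and those of smallest p were Scn8a (0.16, SE 0.09), Nfasc (0.12, SE 0.07) and Cntnap1 (0.13, SE 0.08). The edgeR adjusted p of these 8 genes other than Ptprz1 lay between 0.647 for Spock3 and 0.735 for Rtn4r.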

How the data were processed

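The authors deposited 1 table of whole-number counts for 5 libraries, not normalized. Per the submitters' processing notes, cutadapt, Trimmomatic, STAR 2.5.2b, HTSeq and GRCm38 were used; the annotation release, like the strand setting, was not given in the sources used here. Per the labels' protocols, libraries were made with a stranded kit that selects polyadenylated RNA. Symbols, coordinates and exon lengths came from GENCODE M21, matching 55230 of 55471 identifiers.

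Genes were filtered with filterByExpr (minimum count 10, minimum total count 15) and scaled by TMM. The quasi-likelihood F test of edgeR 4.0.16 (R 4.3.3) compared KO with WT, with no other term, and Benjamini-Hochberg adjustment ran over 16052 genes (threshold 0.05). CPM values are TMM scaled. Simulated data with 200 known changes were used to test the code. WT pairs differed beyond sampling noise (chi-square per degree of freedom 5.94 to 7.97), as did the KO pair (4.21).

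The matrix genes and lists were chosen with earlier results of these data known. Named genes were the 10 matrix genes, the 3 closest in pattern to the one of smallest p, the 3 of smallest p per pathway list, Lhx1os, and the 3 most abundant precursor markers. Of the other marker lists, those shown are given as sums, and not all are shown. Alternatives used other size factors and filters, robust dispersion, DESeq2 1.42.0, limma 3.58.1 (voom), a replicate block and each library left out.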

Additional observations from a re-analysis of the deposited data

How the results depend on the processing

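No matrix gene was called under any of the 13 alternatives, and 7 of the 10 kept their sign in all of them. The exceptions were Hapln2 without WT replicate 2 (0.00837) or KO replicate 2 (0.0375; range over single libraries left out −0.101 to 0.0375), Tnr without WT replicate 1 (0.0225; range −0.0512 to 0.0225) and Has3 without KO replicate 1 (0.10; range −0.38 to 0.10). The count of matrix genes whose groups did not overlap was 1, and 4 when scaled by library totals without TMM (Hapln4 and Crtac1 higher, Vcan and Hapln1 lower; 24.6% of all genes); it ranged from 2 to 7 with 1 library left out, where fewer libraries part more easily (33.7% to 52.8% of all genes). Pathway genes called went from 0 to 2 (Timp3 and Dcn, the latter named after its values were seen) without WT replicate 1, a range of 0 to 2. Over all genes, the 3 calls became 6 with DESeq2 size factors, 96 with no filter, 12 with robust dispersion, 40 with DESeq2, 1 with limma-voom, and 0 to 58 with 1 library left out; the cause was not tested. The replicate block gave 25 calls, and 0 among the matrix genes. Same-numbered libraries had deviations correlated at 0.0579 and 0.00203 across genes, and WT replicate 3 with KO replicate 2 at 0.0620. With 2 KO libraries, the deviations of 1 mirror those of the other, so these values cannot decide on pairing. The labels state no pairs, and the numbers were not taken as pairs. With 1 KO library left, that library is assumed to vary like WT. Hapln3 had too few counts for a value at a minimum count of 50. Depth limits Has3, at 75 to 120 counts, most.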
